A study of Mus musculus with 4 samples.

Results

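T helper lineage transcription factors are the proteins that commit an activated CD4+ T cell to a T helper fate. The 10 described here, Gata3, Tbx21, Maf, Nfil3, Gfi1, Irf4, Bcl6, Rora, Runx3 and Foxp3, were taken as a list of symbols and matched to the Ensembl gene IDs of the deposited tables through GENCODE; all 10 were present, out of 38282 IDs. The samples were mouse (C57BL/6) spleen naive CD4+ T cells kept in culture under the Th0 condition, meaning activation without the cytokines that steer lineage choice, and collected on day 4. Of the 4 libraries, 2 came from Th0 cultures and 2 from Th0 cultures given dopamine (Th0+Dopa), and in each group they are numbered 2 and 3. The study's title concerns dopaminergic nerves and Th2 inflammation of the postnatal lung, and the comparison asks how these transcripts differ when dopamine is present in the culture. Dopamine's dose and timing, the age and number of the animals and any pooling of cells were not stated in the labels used here.

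As background, each T helper fate is tied to its own factors: T-bet (Tbx21) to Th1, GATA3 to Th2, BCL6 to follicular helper (Tfh), ROR-alpha (Rora), with a related receptor, to Th17, and FOXP3 to regulatory T cells (Treg). These factors restrain each other, as T-bet does GATA3 and BCL6 does BLIMP1 (Prdm1), so their balance is read as well as their level. Others act across lineages: IRF4 is needed for several effector fates, c-MAF activates Il4 and serves Tfh and Th17 cells, GFI1 supports growth of Th2 cells, NFIL3 regulates Th2 cytokine genes, and RUNX3 works with T-bet in Th1 cells.

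Promoter windows are shown for 3 of the 5 members that rose with dopamine (Tbx21, Nfil3 and Irf4) and for Gata3, which did not pass the test. The downstream start of Bcl6, the window with the most STAT matches, is shown too. Sequences are from RefSeq on GRCm38.p6, 250 bases before to 50 after an annotated start, 5′ to 3′ on the gene's strand. RefSeq windows were matched for 9 of the 10 members, all but Maf, 13 windows in all. Capitals mark matches, on either strand, to GGGCGG (a GC box), TTCNNNGAA (a STAT site), GGAAAA (an NFAT core) or TGACG (the core of a cAMP response element).
Tbx21 (chr11:97115282-97115581, minus strand): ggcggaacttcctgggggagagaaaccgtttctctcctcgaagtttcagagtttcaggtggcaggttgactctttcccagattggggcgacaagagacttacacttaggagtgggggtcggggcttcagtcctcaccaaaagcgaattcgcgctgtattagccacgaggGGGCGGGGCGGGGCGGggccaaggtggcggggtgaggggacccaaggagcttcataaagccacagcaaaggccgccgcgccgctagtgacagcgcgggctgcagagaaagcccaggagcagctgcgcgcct
Nfil3 (chr13:52980990-52981289, minus strand): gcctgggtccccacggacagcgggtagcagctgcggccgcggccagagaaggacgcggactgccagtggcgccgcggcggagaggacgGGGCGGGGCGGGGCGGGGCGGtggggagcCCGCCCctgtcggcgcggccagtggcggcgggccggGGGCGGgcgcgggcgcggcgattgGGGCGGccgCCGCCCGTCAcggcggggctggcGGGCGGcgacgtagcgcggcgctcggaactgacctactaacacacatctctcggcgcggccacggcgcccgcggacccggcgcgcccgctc
Irf4 (chr13:30748983-30749282, plus strand): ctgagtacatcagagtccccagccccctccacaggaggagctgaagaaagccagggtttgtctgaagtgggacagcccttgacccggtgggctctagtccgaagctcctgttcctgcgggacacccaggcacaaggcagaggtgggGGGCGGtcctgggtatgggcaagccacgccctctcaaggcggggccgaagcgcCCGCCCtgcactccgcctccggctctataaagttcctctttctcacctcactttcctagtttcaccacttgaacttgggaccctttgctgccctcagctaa
Gata3 (chr2:9878551-9878850, minus strand): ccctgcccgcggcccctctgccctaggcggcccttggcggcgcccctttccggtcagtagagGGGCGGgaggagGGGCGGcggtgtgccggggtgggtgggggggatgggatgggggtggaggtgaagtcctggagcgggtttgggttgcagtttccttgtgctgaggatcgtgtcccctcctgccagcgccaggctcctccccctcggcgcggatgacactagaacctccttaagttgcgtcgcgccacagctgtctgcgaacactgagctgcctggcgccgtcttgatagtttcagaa
Bcl6 (chr16:23981234-23981533, minus strand): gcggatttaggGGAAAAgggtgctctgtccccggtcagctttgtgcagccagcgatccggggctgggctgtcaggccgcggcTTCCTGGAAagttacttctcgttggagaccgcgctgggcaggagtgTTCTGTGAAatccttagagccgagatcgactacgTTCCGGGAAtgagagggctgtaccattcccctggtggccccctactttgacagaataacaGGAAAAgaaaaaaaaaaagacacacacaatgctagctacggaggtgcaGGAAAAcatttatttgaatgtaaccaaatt
The Tbx21 window held 3 GC boxes, which share letters with each other, and the Nfil3 window 9, several of which share letters too. GC boxes were present in 6 of the 13 windows and in 35.7% of the 32851 promoter windows of the same length. Neither window of Gfi1, which also rose, held a GC box or any other motif searched. A STAT match was present in 3 of the 13 windows (both starts of Bcl6 and 1 of Foxp3) and in 8.30% of all windows, and the TGACG core in 2 (Nfil3 and the upstream start of Bcl6) and in 20.8% of all; in Nfil3 it shares a letter with a GC box. The full palindrome of that element, TGACGTCA, which contains the core, had no match in the 13 windows and a match in 1.79% of all. Neither TGANTCA (AP-1; 7.81% of all), AGGTGTGA (T-box; 1.28%), TTANNTAA (NFIL3; 6.00%) nor GAAA repeated after a gap of 2 letters (IRF; 3.44%) matched a member's window. A site for GATA factors, written AGATAA, matched 1 window, that of Foxp3 (11.2% of all). The GGAAAA core matched 3 windows, those of Bcl6, Rora and Foxp3 (23.4% of all), in Foxp3 overlapping the STAT match. A match is a run of letters and was not tested for binding.

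Expression was given as FPKM, the fragments counted per kilobase of a gene's transcripts and scaled to the mapped fragments of the library. One table holds libraries 2 and another, made separately, libraries 3. Differences are therefore read within a table, and levels set side by side across tables carry that reservation. FPKM summed to 687066 and 715110 in Th0 2 and 3 and to 880583 and 794873 with dopamine, so the sums were higher with dopamine in both tables. Genes above 0 numbered 17833 and 19177 in Th0 and 15974 and 16276 with dopamine, fewer in both tables. Small RNA held 18.26% and 16.48% of FPKM in Th0 and 25.99% and 20.63% with dopamine. Fits after division by the sum or with small RNA left out are given below. Of 18 tested T cell identity genes, 4 rose and 1 fell (7 and 2 at an unadjusted p under 0.05 in limma). Their median log2(FPKM + 1) difference was 0.18, against 0.03 over all tested genes. Cd4 stood at 115 to 123 FPKM in every library, and Ptprcap of that list was listed at 0 in all 4. Markers of other cells moved with the treatment. All 7 tested basophil and mast cell markers fell, and the list summed to 373 and 499 FPKM in Th0 and 47.6 and 43.6 with dopamine, with Tpsb2 and Mcpt4 listed at 0. Of 10 tested macrophage and dendritic cell markers 9 fell (sums of 240 and 326 against 32.1 and 32.6), and of 4 tested neutrophil markers 3 fell (94.8 and 127 against 6.54 and 6.99, with Retnlg listed at 0). No B, NK or CD8 T cell marker passed limma's test among the 2 tested in each list (1, 1 and 0 at an unadjusted p under 0.05). The NK list summed to 5.07 and 8.34 FPKM in Th0 and 10.7 and 7.68 with dopamine. Ncr1, a defining NK gene, was listed at 0 in every library, as Ptprcap of the T cell list was. The share of FPKM held by mitochondrial genes was 5.64% and 8.41% in Th0 and 1.55% and 3.35% with dopamine. In bulk libraries, fewer cells of a type and less RNA per cell cannot be told apart. The part of these cells and of the mitochondrial share in the results below was not tested, nor was that of the lower number of genes above 0.

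With dopamine, 5 lineage factors rose (Maf, Tbx21, Gfi1, Nfil3 and Irf4) and 0 fell among the 7 that could be tested; Gata3 and Runx3 did not pass. Among all 11423 tested genes 6.28% were called higher and 4.39% lower. The call was an adjusted p under 0.05 in limma (Benjamini-Hochberg over all tested genes) on log2(FPKM + 1), with the table as a block, and a gene was tested if its mean was at least 1 FPKM. The median difference of the 7 was 0.64 on that scale, against 0.03 over all tested genes. All 7 were higher with dopamine in both tables, as 37.6% of tested genes were. Bcl6, Rora and Foxp3 lay under the filter and were lower with dopamine in both tables. None of the 7 tested members had passed the filter through 1 group alone, since each had a mean of at least 1 FPKM in Th0 as well.

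Levels per length ranged from 343 FPKM (Irf4 in Th0+Dopa 3) down to 0.0459 (Foxp3 in Th0+Dopa 2). In each library Irf4 was the highest, followed by Gfi1, Nfil3, Tbx21, Gata3 and Maf in that order. Irf4 stood between the 98.0 and 98.5 percentiles of protein-coding genes above 0, Gata3 between 65.8 and 71.3, and Maf between 36.3 and 47.0. Gfi1 and Nfil3 differed by less than the gap between the 2 libraries of a group. Runx3, Bcl6, Rora and Foxp3 filled the last places, and Foxp3 was the lowest in each library. Runx3 stood above Bcl6 and Rora in every library but Th0 2, and with dopamine its values of 2.42 and 1.92 FPKM lay above all of theirs. Bcl6 and Rora changed places between libraries.

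**Figure D1:**
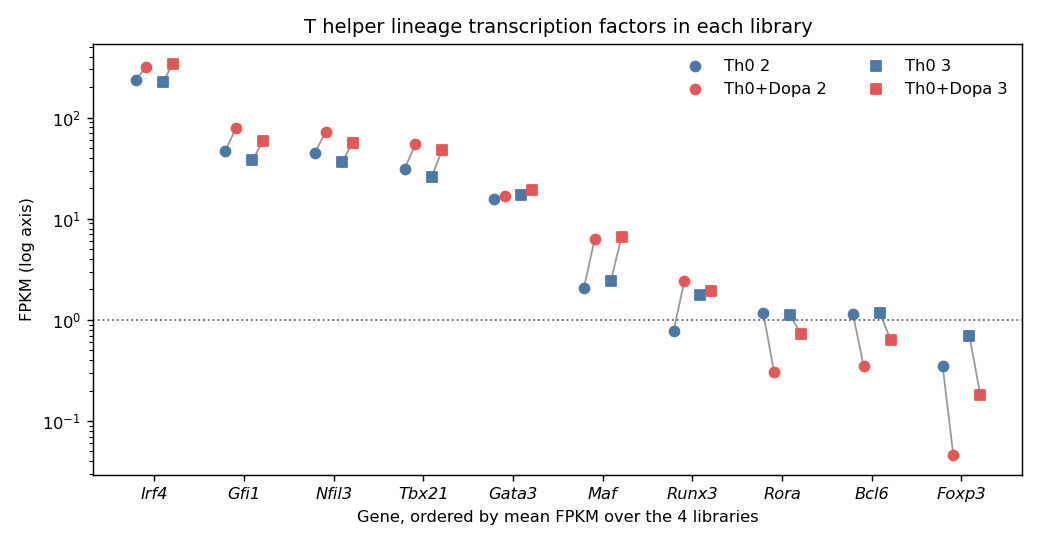
FPKM of the 10 lineage factors (log axis) in each library, genes ordered by mean level; circles are libraries 2 and squares libraries 3, grey lines join the libraries of a table, blue is Th0, red is Th0+Dopa, and the dotted line marks 1 FPKM. Irf4 sits at 224 to 343 FPKM, and Bcl6, Rora and Foxp3 lie lower with dopamine in both tables.

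Maf and Tbx21 showed the largest called rises. Maf (ENSMUSG00000055435, chromosome 8, 115682942 to 115707794, minus strand, GRCm38), whose product c-MAF activates Il4, stood at 2.09 and 2.43 FPKM in Th0 2 and 3 and at 6.29 and 6.67 FPKM in Th0+Dopa 2 and 3. Both dopamine libraries lay above both Th0 libraries, and the FPKM ratio within a table was 3.01 and 2.75. The log2 difference was 1.20 ± 0.22 (SE, n = 2 per group; limma adjusted p = 0.0292), larger than that of 97.3% of tested genes. Tbx21 (ENSMUSG00000001444, chromosome 11, 97098071 to 97115331, minus strand), the gene of the Th1 factor T-bet, stood at 31.4 and 25.9 FPKM in Th0 and at 54.4 and 48.2 with dopamine. The groups did not overlap, and the ratios of 1.73 and 1.86 gave a difference of 0.82 ± 0.12 (adjusted p = 0.0140). On the log2(FPKM + 1) scale the change of a low gene is understated: with a pseudocount of 0.1 the Maf difference was 1.48 ± 0.28.

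Gfi1, Nfil3 and Irf4, the 3 most abundant members, rose by smaller and similar steps. Gfi1 (ENSMUSG00000029275, chromosome 5, 107716657 to 107726036, minus strand), a zinc finger repressor, stood at 47.2 and 37.8 FPKM in Th0 and 78.9 and 58.5 with dopamine. Its difference was 0.67 ± 0.11 (limma adjusted p = 0.0214). Nfil3 (ENSMUSG00000056749, chromosome 13, 52967209 to 52981073, minus strand), a basic leucine zipper factor, stood at 45.1 and 36.6 against 72.6 and 56.0 FPKM. In Nfil3 the difference was 0.64 ± 0.11 (adjusted p = 0.0248). Irf4 (ENSMUSG00000021356, chromosome 13, 30749226 to 30766976, plus strand), which pairs with BATF on effector gene enhancers, stood at 238 and 224 against 318 and 343 FPKM, a difference of 0.51 ± 0.11 (adjusted p = 0.0419). For each of these genes the dopamine libraries lay above the Th0 libraries without overlap, as they did for 31.4% of all tested genes. Gfi1 is also known from neutrophils, Irf4 from dendritic cells and Maf from macrophages, whose lists had medians of -3.46 (neutrophil) and -1.98 (macrophage and dendritic cell). Tbx21 is also known from NK cells. The 2 tested genes of the NK list, named after their values were seen, went opposite ways. Gzma had 1.09 ± 0.31 and Cd160 -0.78 ± 0.32 (limma adjusted p = 0.0849 and 0.181), and 3 of 10 genes were listed at 0. The part of these cells in the 5 rises was not tested.

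**Figure D2:**
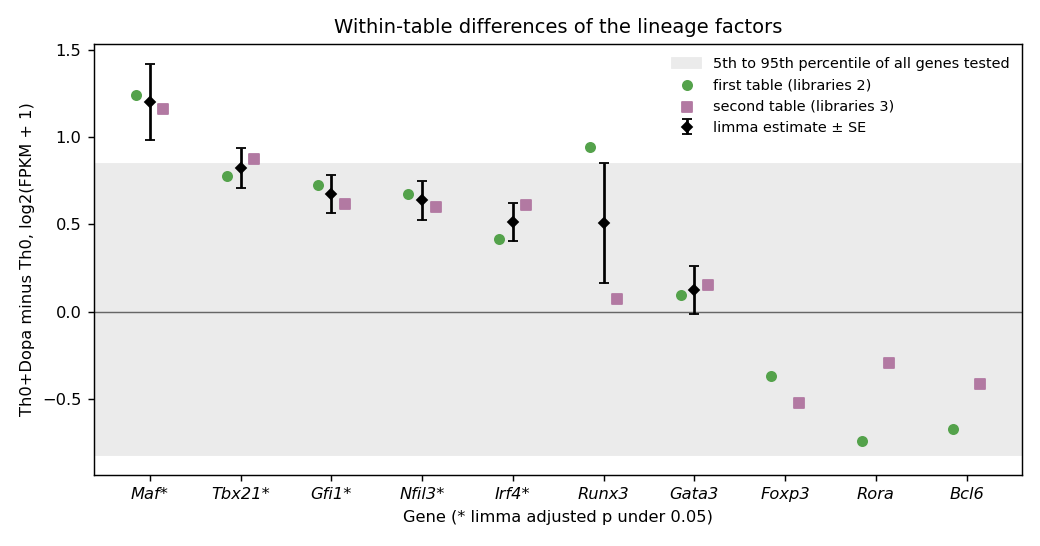
Log2(FPKM + 1) difference, Th0+Dopa minus Th0, of each lineage factor within the first table (circles) and the second (squares), with limma's estimate ± SE (diamonds) for the 7 tested; the grey band spans the 5th to 95th percentile of all tested genes. Maf lies above the band, and the 2 tables of Runx3 stand apart at 0.94 and 0.07.

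Gata3 and Runx3 did not pass the test. Gata3 (ENSMUSG00000015619, chromosome 2, 9857078 to 9890034, minus strand), the Th2 factor, stood at 15.9 and 17.3 FPKM in Th0 and at 17.0 and 19.4 with dopamine. The groups overlapped, and the difference of 0.12 ± 0.14 (limma adjusted p = 0.608) had a 95% confidence interval from -0.22 to 0.46. The sign itself turned under 3 settings: -0.063 after division by each library's FPKM sum, -0.041 after scaling to the T cell identity genes and -0.077 after correction for GC content and transcript length. Relative to the median of all genes, the Gata3 difference was 0.096 as reported, 0.085 to 0.095 under the other scalings and -0.073 after that correction. Gata3 is also active in mast cells and basophils, whose markers fell. Runx3 (ENSMUSG00000070691, chromosome 4, 135120652 to 135177990, plus strand) stood at 0.778 and 1.77 FPKM in Th0 and 2.42 and 1.92 with dopamine. Its groups did not overlap, but the step was large in the first table (0.94) and small in the second (0.07), giving 0.51 ± 0.34 (adjusted p = 0.391, 95% interval -0.35 to 1.36). From the spacing of low values in each library, these rest on an estimated 6.03 and 10.3 fragments in Th0 and 18.3 and 14.6 with dopamine. That estimate used the mean length of the 6 annotated Runx3 transcripts, 1190 bases, and would be higher for a longer transcript.

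Bcl6, Rora and Foxp3 were lower with dopamine in both tables, at levels that rest on few fragments and that were not tested in the reported fit. Bcl6 (ENSMUSG00000022508, chromosome 16, 23965052 to 23988852, minus strand), the Tfh repressor, stood at 1.15 and 1.18 FPKM in Th0 and 0.347 and 0.635 with dopamine. From the value of 1 fragment on a 1 kb transcript (0.153 to 0.204 FPKM, read from the spacing of low values) and the mean length of its transcripts, this came to about 28.0 and 21.5 fragments against 8.23 and 15.2. Rora (ENSMUSG00000032238, chromosome 9, 68653786 to 69388246, plus strand) stood at 1.18 and 1.12 against 0.306 and 0.725 FPKM. Foxp3 (ENSMUSG00000039521, chromosome X, 7573644 to 7595245, plus strand) stood at 0.353 and 0.701 against 0.0459 and 0.182 FPKM, about 5.42 and 8.07 fragments against 0.686 and 2.76. For these 3 genes the groups did not overlap. Among 1136 protein-coding genes with a mean of 0.3 to 1 FPKM and a value above 0 in every library, 39.2% were lower in both tables and 32.4% lay lower with dopamine without overlap. Fitted with no filter on low values, the 3 differences were -0.54 ± 0.27, -0.52 ± 0.28 and -0.45 ± 0.18 (limma adjusted p = 0.382, 0.421 and 0.293).

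Rora is also known from type 2 innate lymphoid cells. Of 10 markers of those cells 4 were tested: Il1rl1 and Arg1 fell, Il7r rose and Areg had 0.27 ± 0.31 (limma adjusted p = 0.614). Il1rl1 and Arg1 are expressed by mast cells or macrophages too, and Nmur1 was listed at 0 in all 4 libraries. This list summed to 21.2 and 33.6 FPKM in Th0 and 23.8 and 26.6 with dopamine, and its part in the Rora values was not tested.

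Ratios of 2 genes within a library do not depend on how that library was scaled. The ratio of Tbx21 to Gata3 was 1.98 and 1.50 in Th0 and 3.20 and 2.49 with dopamine, higher by 1.62-fold and 1.67-fold within the tables. Maf to Gata3 went from 0.132 and 0.140 to 0.370 and 0.345. Il4, the Th2 cytokine gene, stood at 5.39 and 5.11 times the Gata3 level in Th0 and at 15.4 and 11.3 times with dopamine. The members that rose also rose against Gata3 in both tables, by at least 1.25-fold (Irf4 in the first table). They were called in these same libraries and Gata3 moved little, so these ratios restate their rises and are no separate support. Against Cd4, a single gene whose level was steady, Gata3 itself was 1.13-fold and 1.15-fold higher. Scaled to the 18 T cell identity genes, of which 4 rose and 1 fell (median 0.18), the Gata3 difference was -0.041 ± 0.14. Among opposing factors, Bcl6 to Prdm1 went from 1.40 and 1.81 to 0.229 and 0.211, with Bcl6 lower and Prdm1 higher in both tables. Bcl6 was not tested and Prdm1 did not pass (0.87 ± 0.35, limma adjusted p = 0.181). Both genes were low. Prdm1 stood at 0.825 and 0.650 FPKM in Th0 and 1.52 and 3.00 with dopamine, and passed the filter only through the dopamine libraries. Maf to Bcl6 went from 1.81 and 2.06 to 18.1 and 10.5. Tbx21 to Ifng, its Th1 cytokine target, went from 6.98 and 6.20 to 13.8 and 13.3, and Ifng itself had a difference of -0.16 ± 0.22 (limma adjusted p = 0.684). The ratios are given as values and were not tested. The pairs with Il4, Prdm1, Ifng and Cd4 were chosen after their values were seen.

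**Figure D3:**
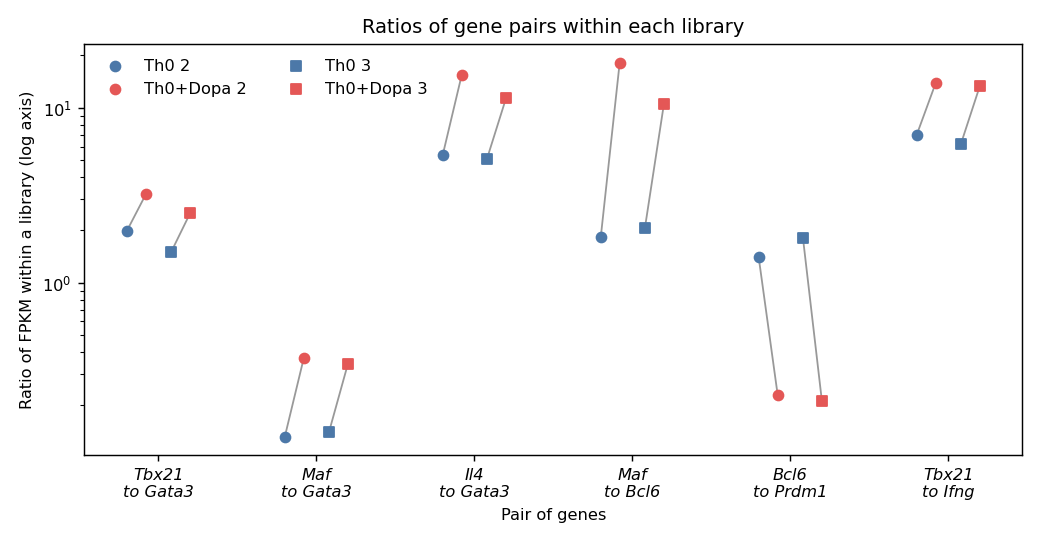
Ratio of the FPKM of 2 genes within each library (log axis); circles are libraries 2, squares libraries 3, blue is Th0 and red Th0+Dopa, and lines join the libraries of a table. Tbx21 to Gata3 moves from 1.98 and 1.50 to 3.20 and 2.49, and Bcl6 to Prdm1, both genes of low level, falls to 0.229 and 0.211.

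Other genes had patterns close to that of Maf. Over the 4 libraries, after each gene was centred on its own mean, the nearest of 9916 named protein-coding genes were Rnaset2a (Euclidean distance 0.023 in log2 units), Cavin3 (0.085) and Csf2 (0.11). Csf2, the gene of the cytokine GM-CSF, stood at 8.14 and 8.49 FPKM in Th0 and 20.8 and 22.6 with dopamine, and its rise of 1.29 ± 0.15 passed (limma adjusted p = 0.00741). Cavin3 rose by 1.26 ± 0.23 (adjusted p = 0.0281), while Rnaset2a, a gene with a near-identical copy and so uncertain, had 1.20 ± 0.32 (adjusted p = 0.0730). Rnaset2a stood at 0.390 and 0.519 FPKM in Th0 and 2.28 and 2.39 with dopamine, and passed the filter only through the dopamine libraries. With 4 libraries in 2 groups such closeness describes little beyond the step between groups.

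Annotated genes that overlap a member on its own strand can share its reads. Those on the opposite strand can do so if strand was not used in counting, which is not stated. Flicr (with Foxp3) and 9230102O04Rik (with Gata3) lie on the member's own strand, and the other overlapping genes on the opposite strand. Gata3, Maf, Rora and Runx3 overlap genes that were at most 1.18 FPKM or listed at 0. Gfi1 overlaps A430072P03Rik on the other strand, which stood at 5.43 and 3.08 FPKM in Th0 and 4.79 and 4.45 with dopamine, well under Gfi1 itself. Foxp3 overlaps Ccdc22, Ppp1r3f and Flicr. Ccdc22 stood at 10.1 and 6.89 FPKM in Th0 and 13.2 and 11.1 with dopamine, far above Foxp3, and Flicr, a noncoding gene of the Foxp3 locus, at 0.539 and 1.86 against 0.294 and 0.197. The level of Foxp3 is therefore uncertain.

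Effector and receptor genes of the T helper lineages are described by list. Of 15 tested Th2 effector and receptor genes 5 rose and 1 fell (median 0.35, against 0.03 over all tested genes). The Th2 cytokine genes Il4 and Il13 rose by 1.45 ± 0.12 and 1.07 ± 0.10 (limma adjusted p = 0.00298 and 0.00447), and Csf2, Crlf2 and Cyp11a1 rose with them; Il5 (0.51 ± 0.17), Il10 (0.05 ± 0.14) and Il9 (-0.75 ± 0.34) did not pass. Basophils and mast cells, whose markers fell, also express Il4 and Il13. The member that fell, Il1rl1, encodes the IL-33 receptor, which those cells carry too. Of 15 tested Th1 genes 3 rose and 0 fell (5 and 1 at an unadjusted p under 0.05 in limma; median 0.22): the chemokine gene Ccl4, the granule protease gene Gzmb and Il12rb1, which encodes a chain of the IL-12 receptor (1.09 ± 0.11). Tnf had 0.46 ± 0.13 (adjusted p = 0.0848) and Lta 0.04 ± 0.17.

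Of 13 tested Tfh genes 2 rose and 4 fell (median -0.16). The costimulator Icos and the receptor genes Btla, Cd200 and Il6st (-0.59 ± 0.13) fell, and Tnfsf8 (0.56 ± 0.10) and Gpm6b (1.01 ± 0.12) rose, each with a limma adjusted p of at most 0.0486. Il21, the Tfh cytokine gene, had 0.30 ± 0.16 (adjusted p = 0.297), Pdcd1 0.28 ± 0.15 and Cxcr5 -0.11 ± 0.38. Of 5 tested Th17 genes none passed in limma, 0 also at an unadjusted p under 0.05 (median -0.19), and Il17a, Il17f and Il22 were at most 0.614 FPKM in any library. Il23r and Ccr6, receptors of Th17 cells, were listed at 0 in all 4. Of 11 tested Treg genes 1 fell, the inhibitory receptor gene Ctla4 (-1.58 ± 0.12, adjusted p = 0.00195), and 0 rose, with 3 higher and 2 lower at an unadjusted p under 0.05; the median was 0.17. Il2ra had 0.24 ± 0.13, Tnfrsf18 -0.21 ± 0.11 and Tnfrsf4 -0.15 ± 0.11. These counts stand beside 6.28% and 4.39% of all tested genes called higher and lower.

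**Figure D4:**
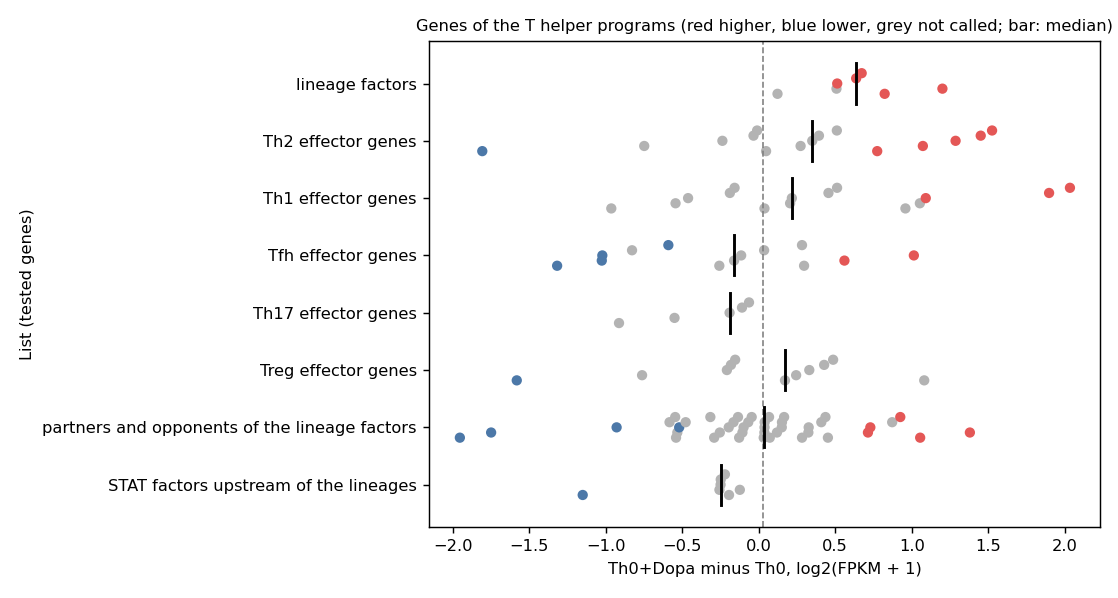
Log2(FPKM + 1) difference, Th0+Dopa minus Th0, of each tested gene of the lineage factors, the T helper programs, the partner factors and the STATs; red points were called higher and blue lower by limma, grey points were not called, black bars are list medians and the dashed line is the median of all tested genes, 0.03. The median is 0.64 for the lineage factors and -0.25 for the STATs.

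Among 49 factors known to work with or against the members, 42 were tested, and 5 rose and 4 fell (median 0.03). Over all tested genes 6.28% were called higher and 4.39% lower. Ikzf3, the gene of the Ikaros family member Aiolos, stood at 71.2 and 54.8 FPKM in Th0 and at 127 and 113 with dopamine, and rose by 0.93 ± 0.11 (limma adjusted p = 0.00850). Pparg, a nuclear receptor active in Th2 cells, rose from 10.2 and 7.80 to 22.8 and 16.9 FPKM (1.06 ± 0.15, adjusted p = 0.0137). Irf8, the close relative of Irf4, rose from 59.7 and 47.9 to 96.3 and 81.0 FPKM (0.71 ± 0.11, adjusted p = 0.0156). The other 2 that rose, named after their values were seen, were Batf3 (1.38 ± 0.23) and Tcf3 (0.73 ± 0.16), while Batf, the AP-1 family partner of IRF4, had -0.05 ± 0.11 (adjusted p = 0.833), also named afterwards.

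The factors that fell were Spi1, Ahr, Bhlhe40 and Hif1a, the last named after its value was seen. Ahr, the aryl hydrocarbon receptor of Th17 and regulatory cells, stood at 6.34 and 8.79 FPKM in Th0 and at 1.52 and 1.53 with dopamine (-1.75 ± 0.24, limma adjusted p = 0.0130). Bhlhe40, a repressor of Il10, fell from 47.9 and 53.1 to 21.03 and 32.1 FPKM (-0.93 ± 0.15, adjusted p = 0.0196). Spi1 encodes PU.1, a factor of Th9 and myeloid cells, and it fell from 5.57 and 6.70 to 0.736 and 0.944 FPKM. It passed the filter only through the Th0 libraries. The myeloid markers given above fell too, and their part in the Spi1 values was not tested. Eomes, the relative of T-bet, lay under the filter at 0.461 and 0.504 against 0.588 and 1.26 FPKM, and Hlx and Twist1 lay under 1 FPKM in every library.

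STAT genes relay the cytokine signals that induce these factors. All 7 were tested and each was lower with dopamine in both tables, as 32.3% of all tested genes were, but 1 passed, also the single one at an unadjusted p under 0.05 in limma. Stat3, which acts below IL-6 and IL-21 in Tfh and Th17 cells, stood at 66.0 and 92.4 FPKM in Th0 and at 28.4 and 42.2 with dopamine (-1.15 ± 0.11, limma adjusted p = 0.00445). Stat2 had -0.22 ± 0.19 and Stat4, the IL-12 relay of Th1 cells, -0.26 ± 0.13 (adjusted p = 0.510 and 0.246). The median of the 7 was -0.25.

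The 5 called members kept a positive difference under every setting run, but no call held under all. Without limma's trend 0 of the 5 passed (lowest adjusted p = 0.0546, for Maf), although all 5 had an unadjusted p under 0.05. With either Th0 library or either dopamine library left out, limma called 0 of the 5; at an unadjusted p under 0.05 were all 5 without Th0 2 or without Th0+Dopa 3, Maf, Tbx21 and Irf4 without Th0+Dopa 2, and Maf and Tbx21 without Th0 3. Their lowest adjusted p was 0.151, and the differences ran from 1.12 to 1.25 for Maf, 0.66 to 0.95 for Tbx21, 0.43 to 0.88 for Gfi1, 0.42 to 0.81 for Nfil3 and 0.44 to 0.55 for Irf4. Without the table block Gfi1, Nfil3 and Irf4 lost their call (limma adjusted p = 0.117, 0.113 and 0.0748). Runx3 ranged from 0.18 without Th0 2 to 0.81 without Th0 3. After division by each library's FPKM sum, which moved the median of all genes from 0.03 to -0.15, Maf and Tbx21 passed and Gfi1, Nfil3 and Irf4 did not (limma adjusted p = 0.0649, 0.0927 and 0.134). Relative to that median, the Irf4 difference was 0.46, beside 0.49 as reported. Among all calls, 58.9% were higher as reported, and 32.1% after that division.

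**Figure D5:**
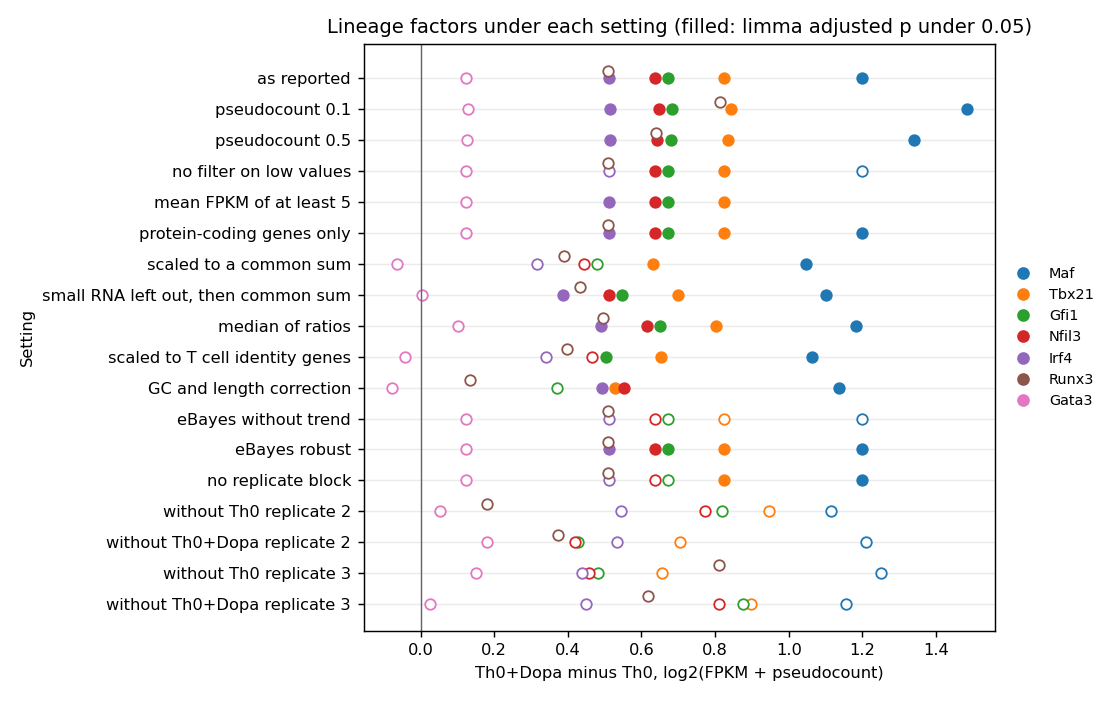
Log2 difference, Th0+Dopa minus Th0, of the 7 tested lineage factors under each setting; a filled point had a limma adjusted p under 0.05, and the points of Runx3 are raised slightly so that they do not hide Irf4. Maf stays between 1.05 and 1.48 and Tbx21 between 0.53 and 0.95, and no point is filled in the fits without trend or with a library left out.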

How the data were processed

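Per the labels' protocols, total RNA was made into stranded libraries depleted of ribosomal and globin RNA and sequenced paired-end on 2 lanes per sample. The deposited values are FPKM computed by the authors; the submitters' processing notes name STAR 2.4.2 and Cufflinks 2.2.1, with the mm10 build, beside Trimmomatic 0.35, bcl2fastq 1.8.4 and FastQC 0.10.1. Annotation release, normalization options and strand use were not stated, and depth is known only as estimated from low values.

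GENCODE M21 (GRCm38, the mm10 build) named 36423 of the 38282 IDs. Genes with a mean of at least 1 FPKM (11423) were fitted in R 4.3.3 with limma 3.58.1 (lmFit, eBayes with trend) on log2(FPKM + 1), two-sided, with table as block, Benjamini-Hochberg adjusted over all tested genes. Each gene has 1 residual degree of freedom beside a prior of 4.7. As the labels do not tie the libraries to separate animals or cultures, the p-values reflect spread among these libraries alone, possibly technical spread. The script was tested on simulated data drawn from limma's own fitted variances, which checks the code and cannot bear on the calls.

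Alternatives were other pseudocounts (0.1, 0.5), filters, scalings, limma settings, a loess correction (span 0.3) for GC content and length, no block, and each library left out. The members, lists and tests were chosen with earlier results of these data known. Named genes are the members, overlapping genes, the 3 nearest to the largest called member, and, per list, up to 6 called genes by adjusted p and 3 others in list order. Sequences are credited to RefSeq. Lists were described by counts and medians and not tested. A few list genes are not reported here.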

Additional observations from a re-analysis of the deposited data

How the results depend on the processing

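Lineage factors called higher numbered 5 as reported and 4 or 5 under other pseudocounts, a mean of at least 5 FPKM (where Maf was not tested), protein-coding genes only, small RNA left out, median of ratios, robust limma and the GC and length correction (where Gfi1 had adjusted p = 0.102). They numbered 3 with no filter on low values, 2 after division by the FPKM sum, 3 after scaling to T cell identity genes, 0 without trend and 0 to 0 with a library left out; 0 were called lower throughout. With no replicate block 2 lineage factors, 256 genes higher and 240 lower were called; same-numbered libraries deviated from their group means with a correlation of 0.087 (2 pairs), and the labels tie a number to no shared animal or day. All genes called higher and lower numbered 717 and 501 as reported, 442 and 298 with no filter, 1077 and 907 among protein-coding genes, 454 and 1007 scaled to T cell identity genes, 444 higher with the GC and length correction, and 106 and 150 without trend. Genes called lower numbered 1181 after division by the FPKM sum and 1107 with small RNA left out. With a library left out, genes called higher ran from 0 to 13 and lower from 0 to 9, with 1294 to 2762 at an unadjusted p under 0.05; in these fits, made without the block, values were scaled by median of ratios, and a lone library was assumed to vary like the other group. Higher genes made up 58.9% of calls as reported, 36.5% with small RNA left out (median of all genes -0.091), 31.1% after T cell scaling (-0.13), 47.0% with the GC and length correction and 41.4% without trend. The cause of these shifts was not tested. Gata3 reversed to -0.063, -0.041 and -0.077 after division by the FPKM sum, T cell scaling and the GC and length correction. Of 52 other called genes of the lists none reversed. Among fits to all 4 libraries, their calls were lost most often without trend (27) and without the block (17). A fit added after the data were seen, with no filter and a pseudocount of 0.1, gave Bcl6 -1.14, Rora -1.11 and Foxp3 -1.57 (limma adjusted p = 0.426, 0.457 and 0.376). Depth limits Foxp3, Runx3, Rora and Bcl6, each at about 28.0 fragments or fewer per library by the rough estimate from mean transcript length.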
